A study of Mus musculus with 29 samples.

Results

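The genes described here encode the Wnt pathway: Wnt ligands and the proteins that export them, Frizzled, Lrp, Ror and Ryk receptors, secreted antagonists, Dishevelled, β-catenin and its destruction complex, the TCF/LEF factors and the Tle corepressors. Members were set by a list of gene symbols, a list drawn up with earlier results of these data known. The annotation holds 70 such genes, and 35 of them are among the 11959 genes of the count table. Those 35 comprise 3 of 19 ligands, both secretion genes, 12 of 15 receptors, 1 of 2 receptor-clearing ligases, 2 of 9 secreted antagonists, 3 of 5 Dishevelled and Naked cuticle genes, 5 of 6 genes of β-catenin and its destruction complex, 3 of 4 TCF/LEF genes, all 4 corepressors and none of the 4 R-spondin agonists. The other 35 genes, among them Wnt10b, Wnt10a, Wnt5b, Sfrp1, Sfrp4, Sfrp5, Dkk1, Axin2 and Tcf7, were not analysed here. Every gene in the table exceeded 1 CPM (counts scaled to a common library total) in at least 20 of the 29 samples.

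RNA-seq was carried out on 3T3-L1, an established mouse line that grows as preadipocytes and turns into adipocytes under hormonal induction. KDM5-C70 (C70), an inhibitor of the KDM5 histone demethylases, was compared with its vehicle, DMSO. The confluent preadipocytes received 10 µM C70 or vehicle from day -2 until day 0 and neither after that, so the C70 samples of days 1, 2 and 7 came from pretreated cells. All groups were kept in preadipocyte medium until day 0, in differentiation medium between day 0 and day 2, and in adipocyte medium later. The 8 groups were vehicle and C70 on day 0, day 1, day 2 and day 7, with 3 vehicle and 4 C70 samples on the first 3 of these days and 4 of both on the last. Nothing in the labels says whether replicates were separate cultures, so the P-values measure only the spread between these samples, and all came from 1 cell line.

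Wnt proteins are lipid-modified by the acyltransferase Porcn, carried to the cell surface by Wls, and bind Frizzled receptors together with Lrp5 or Lrp6, or with the Ror and Ryk receptors. In the canonical branch this stops the destruction complex of Apc, Axin and Gsk3 from marking β-catenin for degradation, and β-catenin then displaces Tle corepressors from TCF/LEF factors on target genes. Canonical signalling is known to hold preadipocytes in the undifferentiated state, while secreted antagonists of the Sfrp and Dkk families act outside the cell.

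Levels are given as CPM after scaling of each library by the trimmed mean of M values. Total counts were 16320275 to 24037170 per sample. Called means an adjusted P below 0.05 in edgeR's quasi-likelihood test, with Benjamini-Hochberg adjustment over all 11959 genes, and a log2 fold change beyond 0.322 in either direction. The labels give the cell type as adipocyte for every sample, but the summed level of 9 adipocyte markers (Adipoq, Fabp4, Plin1 and others; Lep was not in the table) had a median of 1371 CPM in vehicle on day 0 and 24420 CPM on day 2. The 6 preadipocyte markers in the table (Dlk1, Pdgfra, Pdgfrb, Ly6a, Thy1 and Cd24a, with Cd34 and Dpp4 not in it) went in vehicle from a median sum of 3965 CPM on day 0 to 1762 CPM on day 1, 715 CPM on day 2 and 450.2 CPM on day 7. Their sum was higher with C70 on every day without overlap. It was 4425 to 4714 CPM against 3830 to 3990 CPM on day 0 and 2262 to 2403 against 1751 to 1793 on day 1. It was 1072 to 1158 against 702 to 730 on day 2 and 805 to 945 against 376 to 515 on day 7. Most of the day 0 sum was Dlk1 (mean 2572 CPM in vehicle). The day 0 log2 fold changes of Dlk1, Pdgfra, Pdgfrb, Ly6a, Thy1 and Cd24a were 0.18, 0.098, -0.012, 1.329, 0.912 and 0.512. The adipocyte sum was higher with C70 on day 0 (1473 to 1526 against 1291 to 1413 CPM), most of it Lpl. On that day the log2 fold changes of Lpl, Plin1, Cebpa, Adipoq and Cidec were 0.18, 0.73, 0.39, 0.25 and 0.25, and those of Fabp4, Pparg, Cd36 and Retn were -0.41, -0.50, -0.23 and -0.89. The sum was lower on day 1 (3354 to 3480 against 5390 to 5694 CPM) and day 2 (14000 to 15530 against 24270 to 25150 CPM), and overlapped on day 7. Of markers of other cells, 2 of 6 for macrophages were in the table (Cd68 and Cd14; Ptprc, Adgre1, Csf1r and Itgam were not). There were 0 of 5 for endothelium, Des alone of 5 for muscle, and Runx2 and Sox9 of 7 for bone and cartilage. The macrophage sum was 25.7 to 26.8 CPM with C70 against 7.82 to 8.91 CPM in vehicle on day 0, 17.4 to 20.2 against 4.09 to 4.88 on day 1, 9.02 to 10.1 against 3.07 to 4.14 on day 2 and 4.02 to 5.90 against 4.39 to 6.34 on day 7. On day 0 this was Cd68 (mean 19.1 against 1.31 CPM) and not Cd14 (7.2 against 7.03 CPM). Des was higher with C70 on day 0 (8.69 to 10.0 against 4.18 to 5.61 CPM), day 1 and day 2, and the sum of Runx2 and Sox9 on day 2 (93.1 to 105 against 60.7 to 65.4 CPM) and day 7. Among the vehicle samples of day 7, replicate 1 was the lowest for several members, such as Apc at 53.3 CPM against 81.5 to 96.8 CPM in the other 3. The part of these differences in the results that follow was not tested, and in such bulk samples fewer cells of a type and less RNA per cell cannot be told apart.

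Promoters were read for the members that were higher with C70 on 3 or 4 days, 8 in all, of which 6 have an entry in the RefSeq promoter table (GRCm38.p6; 250 bases before to 50 bases from the start of transcription). KDM5 enzymes act on a histone mark found at active promoters, and that mark is known to be widespread at CpG-rich ones, so capitals mark CG dinucleotides in the windows printed here. RefSeq starts need not be those of the annotation used for counting. The windows were chr1:74771642-74771941 (plus strand) for Wnt6, chr3:83766071-83766370 (plus strand) for Sfrp2, chr4:137277385-137277684 (plus strand) for Wnt4 and chr5:4758167-4758466 (minus strand) for Fzd1, each written 5′ to 3′ on the strand of its gene.
Wnt6: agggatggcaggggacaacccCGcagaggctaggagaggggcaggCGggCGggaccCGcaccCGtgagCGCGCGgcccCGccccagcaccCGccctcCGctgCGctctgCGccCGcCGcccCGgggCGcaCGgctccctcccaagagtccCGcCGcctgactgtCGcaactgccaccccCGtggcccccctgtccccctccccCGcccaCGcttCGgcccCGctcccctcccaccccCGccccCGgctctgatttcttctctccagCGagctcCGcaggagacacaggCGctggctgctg
Sfrp2: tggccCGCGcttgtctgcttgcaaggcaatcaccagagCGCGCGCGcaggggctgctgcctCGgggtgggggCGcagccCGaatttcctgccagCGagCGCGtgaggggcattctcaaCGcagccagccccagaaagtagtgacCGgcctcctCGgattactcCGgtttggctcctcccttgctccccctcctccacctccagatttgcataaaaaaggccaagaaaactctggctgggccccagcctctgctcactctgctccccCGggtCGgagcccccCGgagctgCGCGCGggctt
Wnt4: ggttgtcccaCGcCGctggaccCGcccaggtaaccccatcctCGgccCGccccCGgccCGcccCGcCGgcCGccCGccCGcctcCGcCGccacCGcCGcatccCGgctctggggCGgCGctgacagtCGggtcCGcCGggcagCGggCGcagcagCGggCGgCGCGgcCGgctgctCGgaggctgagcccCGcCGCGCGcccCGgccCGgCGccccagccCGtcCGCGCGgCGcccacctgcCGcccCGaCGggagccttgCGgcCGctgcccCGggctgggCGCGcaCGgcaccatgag
Fzd1: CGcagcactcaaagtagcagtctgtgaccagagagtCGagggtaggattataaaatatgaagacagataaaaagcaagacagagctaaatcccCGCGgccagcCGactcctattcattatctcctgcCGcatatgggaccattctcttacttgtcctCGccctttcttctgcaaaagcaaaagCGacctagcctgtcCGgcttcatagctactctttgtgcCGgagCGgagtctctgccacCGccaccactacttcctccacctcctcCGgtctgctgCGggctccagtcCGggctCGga

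The Wnt4 window held 51 CG dinucleotides, the Wnt6 window 31, the Sfrp2 window 22 and the Fzd1 window 16, while the windows of Tle2 and Fzd7, not printed, held 28 and 24. Over the 30 windows of the 24 members with an entry the median was 28 (range 5 to 51). Over the 11494 windows of the 9007 genes of the count table with an entry it was 21 (quartiles 13 and 29). All 32851 windows, which include genes outside the count table, had a median of 7 (quartiles 3 and 20). The TCF/LEF core, searched on both strands as the letters CTTTGAA and CTTTGAT, was in none of the 6 windows named above. Of the members' windows only that of Gsk3a held a match, while 651 windows of count table genes did (5.66%) and 2842 of all windows (8.65%). Dkk3 and Porcn are the 2 members of the 8 without an entry.

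On day 0 in vehicle, the member with the most reads per length was Ctnnb1, which encodes β-catenin, at 109 CPM per kb of exon, followed by the receptor gene Fzd1 at 94.3 CPM per kb and the repressive TCF factor gene Tcf7l1 at 60.6 CPM per kb. The 3 ligands were far lower on this scale, at 4.92 CPM per kb for Wnt5a, 4.02 CPM per kb for Wnt6 and 0.83 CPM per kb for Wnt4. By day 7 in vehicle, Tcf7l1 ranked highest at 76.8 CPM per kb, Ctnnb1 stood at 55.9 CPM per kb, and Fzd1 had dropped to rank 14 at 8.63 CPM per kb. The lowest on day 7 were Ror2 at 0.0608 and Dkk3 at 0.14 CPM per kb.

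**Figure D1:**
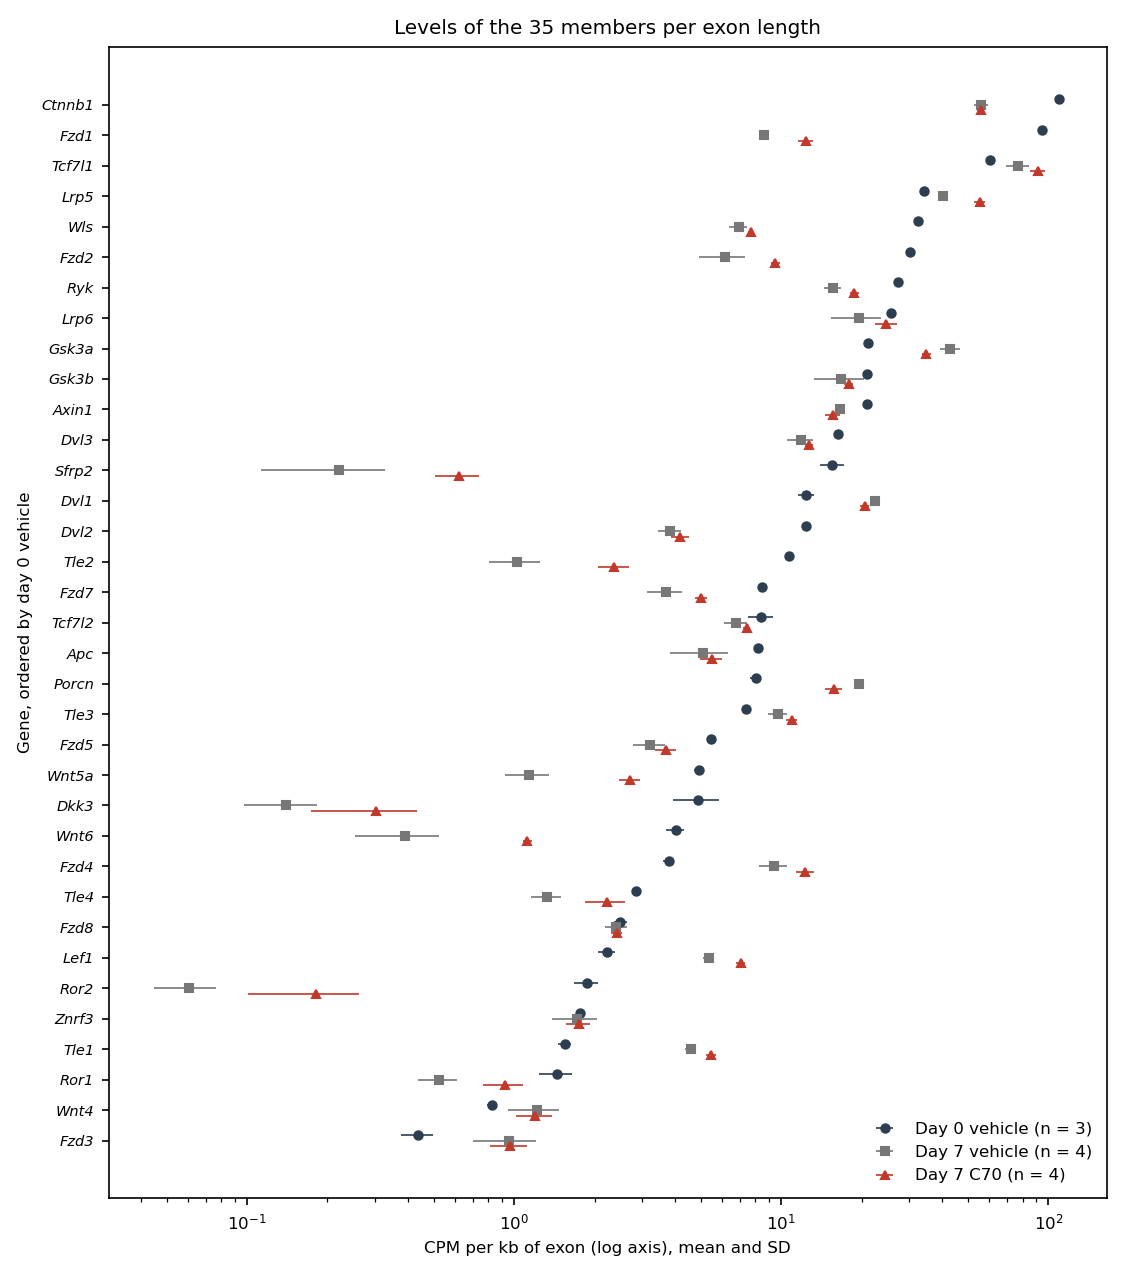
Mean level of each of the 35 members in CPM per kb of exon (horizontal log axis, error bars are SD) in vehicle at day 0 (n = 3), vehicle at day 7 (n = 4) and C70 at day 7 (n = 4), ordered by the day 0 level. Ctnnb1 is at the top at 109 CPM per kb, and the widest gaps between day 0 and day 7 are those of Sfrp2, Dkk3 and Ror2 in vehicle.

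The course of the members in vehicle addresses how the pathway's transcripts change as the cells differentiate. Relative to day 0, 12 members were higher and 10 lower on day 1, when 26.2% of all genes were higher and 27.9% lower (54.1% in all). By day 2, 13 were higher and 16 lower, beside 33.4% and 32.4% of all genes (65.8%). By day 7, 10 were higher and 21 lower, beside 36.7% and 36.7% (73.5%). These comparisons share the day 0 samples, and the day and the medium cannot be told apart. On all 3 later days 9 members were lower than on day 0 (Dkk3, Dvl2, Fzd1, Fzd2, Ror2, Sfrp2, Tle2, Wnt5a and Wnt6) and 8 were higher (Fzd3, Fzd4, Gsk3a, Lef1, Porcn, Tcf7l1, Tle1 and Wnt4). Of all genes, 19.2% were lower and 18.3% higher on all 3 days. Ror2 lost its day 1 call with quantile normalization, at -0.46. Znrf3 was called on none of the later days, with log2 fold changes of 0.028, -0.053 and -0.039. Without day 7 vehicle replicate 1 the 31 calls of day 7 became 28: Lrp6 (log2 fold change -0.40) was at -0.26, Gsk3b (-0.32) at -0.18 and Tcf7l1 (0.34) at 0.315. The Tcf7l1 call was also lost without replicate 4 (0.296), with the filter on low genes (0.30) and with quantile normalization (0.17), that of Gsk3b with vehicle replicate 3 of day 0 (-0.29) or C70 replicate 2 of day 7 (-0.32) left out, that of Axin1 without day 7 vehicle replicate 3 (-0.319), and that of Tle3 with quantile normalization (0.303).

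With C70, 6 members were higher and 0 lower than in vehicle on day 0, which is 17.1% of the 35 against 8.97% of all genes called. Higher calls made up 5.89% of all genes and lower calls 3.09%. On day 1, 10 members were higher (13.6% of all genes were) and 1 lower (7.80%), or 31.4% of the 35 against 21.4% of all genes. On day 2, 15 were higher (16.9%) and 2 lower (13.6%), or 48.6% against 30.5%. On day 7, 15 were higher (14.3%) and 0 lower (4.85%), or 42.9% against 19.1%. No member was called lower on the first or the last day, and DESeq2 gave the same counts of calls, 6 and 15. On those days 12 and 25 members had an unadjusted P under 0.05 in either direction, where 30.8% and 48.2% of all genes did. By adjusted P alone, with no fold threshold, 12, 17, 25 and 24 members passed on the 4 days (edgeR), beside 19.8%, 40.7%, 50.7% and 41.1% of all genes, and 1 of the 12 and 3 of the 24 were lower. Vehicle and C70 samples did not overlap for 15, 24, 27 and 20 of the 35 members on the 4 days, where 34.0%, 48.2%, 57.2% and 29.3% of all genes had groups apart. Of these members, 13, 18, 20 and 18 were higher with C70, and the others were lower. The median log2 fold change of the members was 0.047 on day 0, 0.095 on day 1, 0.20 on day 2 and 0.25 on day 7, beside medians over all genes between -0.006 and 0.004. Leaving out the first vehicle or the third C70 sample of day 0 took the day 0 count from 6 to 4, and leaving out day 7 vehicle replicate 1 took the day 7 count from 15 to 13.

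**Figure D2:**
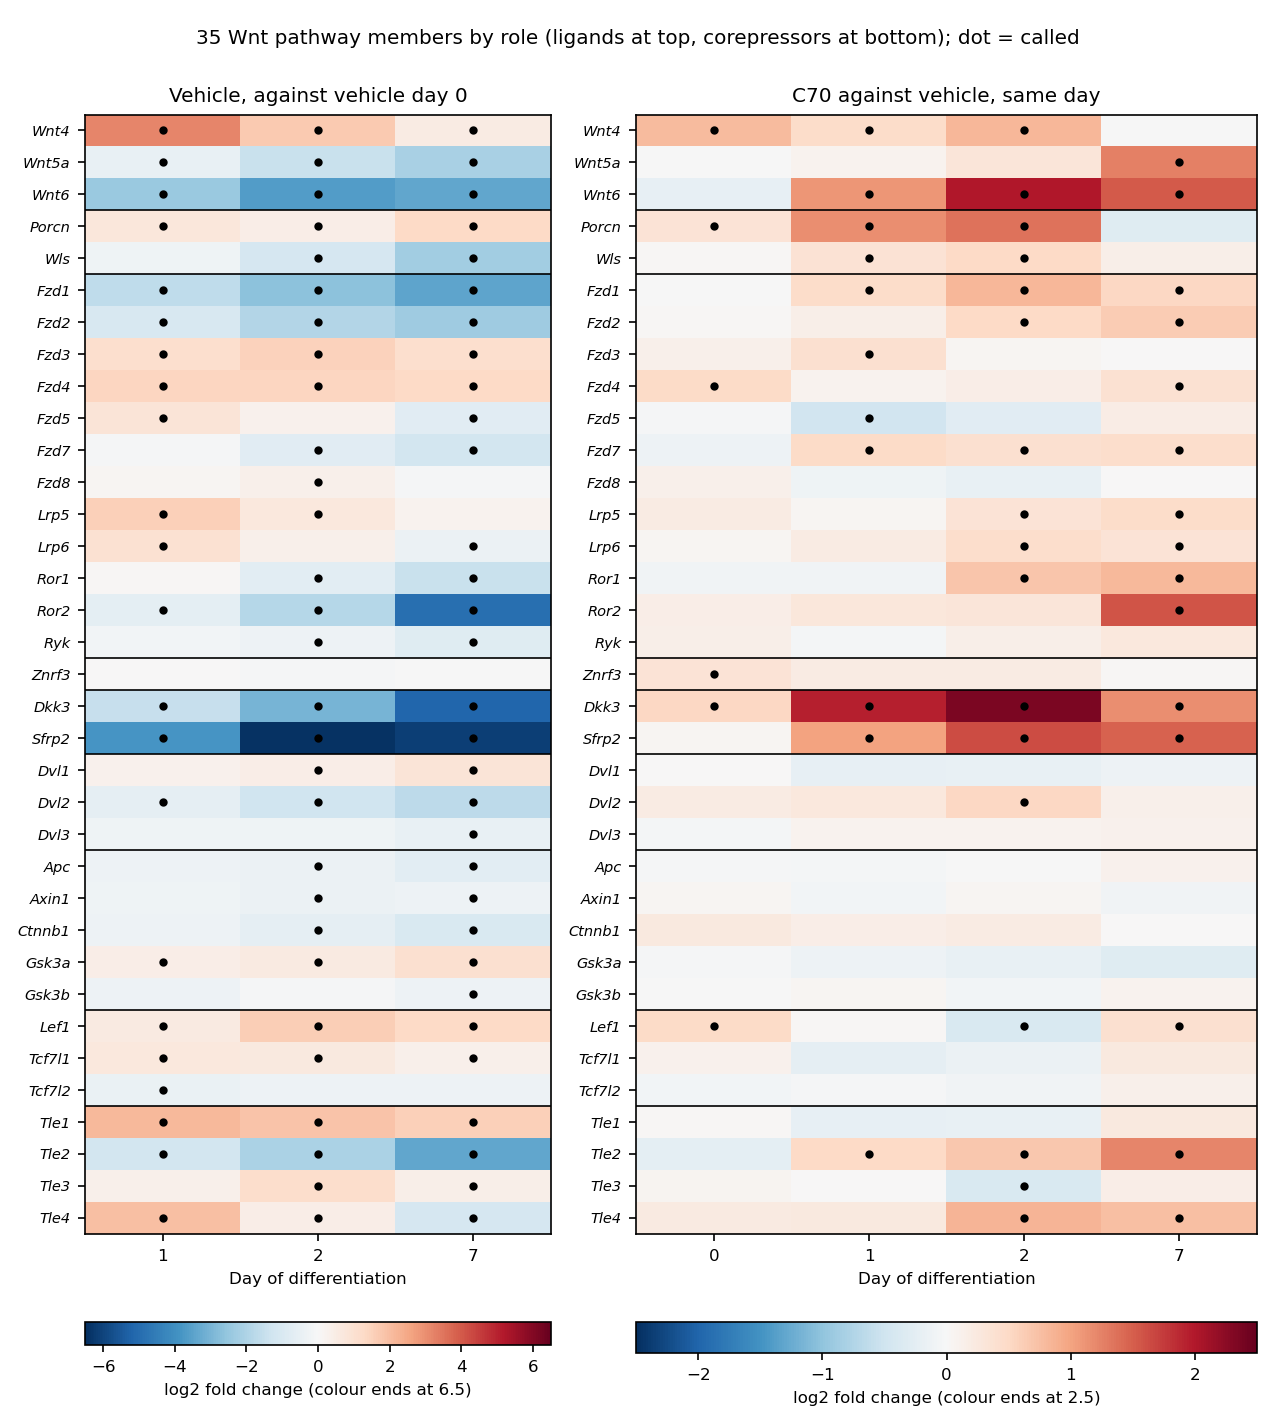
log2 fold change of each of the 35 members, in vehicle against vehicle at day 0 (left, 3 days) and with C70 against vehicle on the same day (right, 4 days), with roles separated by lines, ligands at the top and corepressors at the bottom. Red is higher, blue lower, and a dot marks a called change; on the right, the destruction complex carries no dot, and the darkest cells are Dkk3 and Wnt6 at day 2.

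Over the 4 days, 23 of 35 members (65.7%) were called on at least 1 day and 16 (45.7%) on at least 2, where all genes gave 44.5% and 23.3%. Higher on 3 or 4 days were 8 members (22.9%, and 7.51% of all genes): the ligands Wnt4 and Wnt6, the export enzyme Porcn, the receptors Fzd1 and Fzd7, Dkk3 and Sfrp2 of the antagonist families, and the corepressor Tle2. Lower on any day were 3 members (8.57%, and 21% of all genes), Fzd5 on day 1 and Lef1 and Tle3 on day 2. Called on no day were 12.

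**Figure D3:**
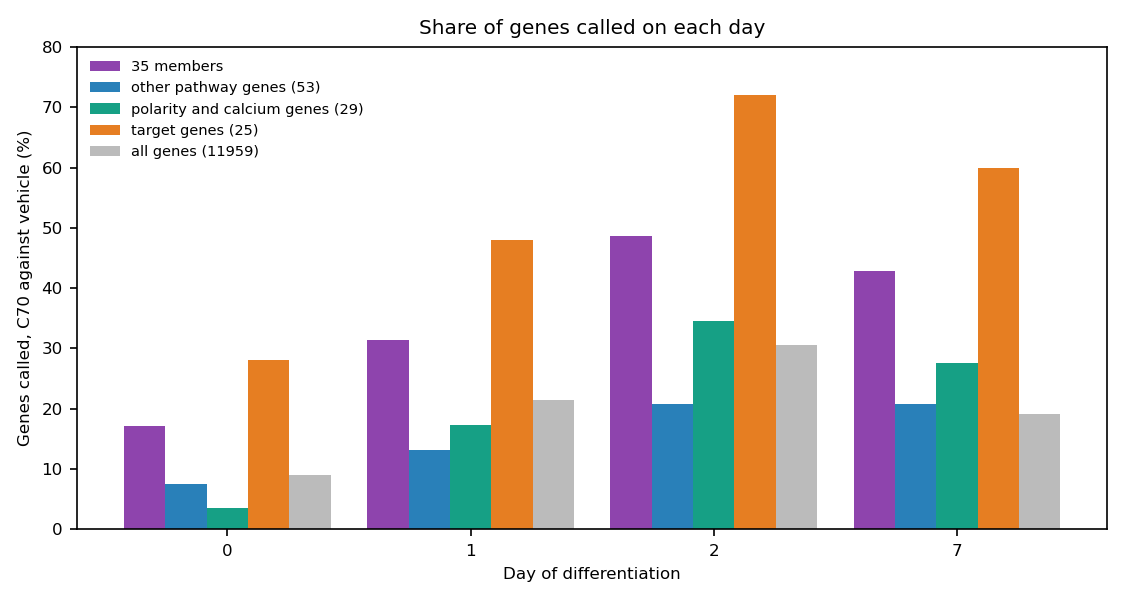
Share of genes called in C70 against vehicle (vertical axis, percent, in either direction) on each day for the 35 members, for 53 other pathway genes, 29 genes of the planar polarity and calcium branches, 25 textbook target genes and all 11959 genes. The members' bars reach 17.1%, 31.4%, 48.6% and 42.9%, each above that of all genes, and the target genes' bars are the highest on every day.

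Among the ligands, Wnt6 fell steeply during differentiation and was higher in pretreated cells from day 1 on. Wnt6 (GRCm38 chr1:74771892-74785322, plus strand), a ligand known to restrain fat cell formation, was at 8.18, 9.51 and 8.73 CPM in the vehicle samples and 7.73, 8.34, 7.89 and 6.69 CPM in the C70 samples on day 0. The levels were 1.0, 2.44 and 1.55 CPM in the vehicle samples and 4.16, 3.79, 2.93 and 3.31 CPM in the C70 samples on day 1. Those of day 2 were 0.63, 0.86 and 0.563 CPM in the vehicle samples and 2.4, 2.98, 2.87 and 2.92 CPM in the C70 samples. The groups overlapped on day 0 and were apart at days 1 and 2, with every C70 sample above every vehicle sample. On day 7 Wnt6 was at 1.28, 0.62, 0.686 and 0.822 CPM in the vehicle samples and 2.36, 2.54, 2.38 and 2.53 CPM in the C70 samples, again without overlap, although the vehicle samples rested on only 11 to 22 reads each. The vehicle samples of day 2 were as low, at 11 to 21 reads each. C70 against vehicle gave a log2 fold change of -0.20 ± 0.139 (SE) on day 0, which was not called, 1.10 ± 0.196 (SE, adjusted P = 3.92e-05) on day 1, 2.00 ± 0.243 (SE, adjusted P = 4e-08) on day 2 and 1.53 ± 0.228 (SE, adjusted P = 2.75e-06) on day 7. In vehicle, which these comparisons share, the log2 fold change against day 0 was -2.40 on day 1, -3.65 on day 2 and -3.37 on day 7.

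Wnt4 (chr4:137277489-137299726, plus strand), a ligand that can signal outside the canonical branch, rose at first induction instead. Its levels were 3.62, 3.33 and 3.48 CPM in the vehicle samples and 6.8, 6.32, 5.51 and 5.66 CPM in the C70 samples on day 0. By day 1 it was at 31.7, 32.4 and 30.6 CPM in the vehicle samples and 47.2, 42.9, 42.1 and 40.2 CPM in the C70 samples. By day 2 they were 9.71, 12.2 and 12.1 CPM in the vehicle samples and 17, 20.9, 18.5 and 24.3 CPM in the C70 samples. The C70 samples were the higher ones on all 3 days, with no overlap. On day 7 the Wnt4 groups overlapped, at 5.47, 4.0, 4.41 and 6.47 CPM in the vehicle samples and 4.82, 4.44, 4.7 and 6.17 CPM in the C70 samples. On the log2 scale the C70 effect was 0.80 ± 0.159 (SE, adjusted P = 0.00045) on day 0, 0.45 ± 0.0963 (SE, adjusted P = 0.000371) on day 1 and 0.84 ± 0.114 (SE, adjusted P = 2.99e-07) on day 2, and -0.0059 on day 7 with a 95% confidence interval of -0.30 to 0.29. In vehicle Wnt4 was higher than on day 0 by a log2 fold change of 3.18 ± 0.137 (SE, adjusted P = 4.88e-19) on day 1 and 0.54 ± 0.167 (SE, adjusted P = 0.00377) on day 7.

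Wnt5a, the classical ligand of the planar polarity and calcium branches, is outside the rule for named genes and was chosen after its values were seen. It was at 39.4, 36.7 and 39.3 CPM in the vehicle samples and 37.4, 39.4, 38.1 and 38.2 CPM in the C70 samples on day 0. Levels on day 7 were 6.87, 11, 9.02 and 8.66 CPM in the vehicle samples and 21.9, 18.3, 22.5 and 22.4 CPM in the C70 samples. The groups overlapped on day 0, whereas on day 7 the lowest C70 sample was above the highest vehicle sample. In edgeR the log2 fold change was -0.0077 on day 0, 0.088 on day 1, 0.30 on day 2 (adjusted P = 0.0104 in edgeR, under the fold threshold) and 1.26 ± 0.0948 (SE, adjusted P = 5.76e-12) on day 7. Without day 2 vehicle replicate 2, which was the highest of its group, the day 2 value was 0.41 and was called. In vehicle Wnt5a fell, with a log2 fold change of -2.11 against day 0 by the last day.

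**Figure D4:**
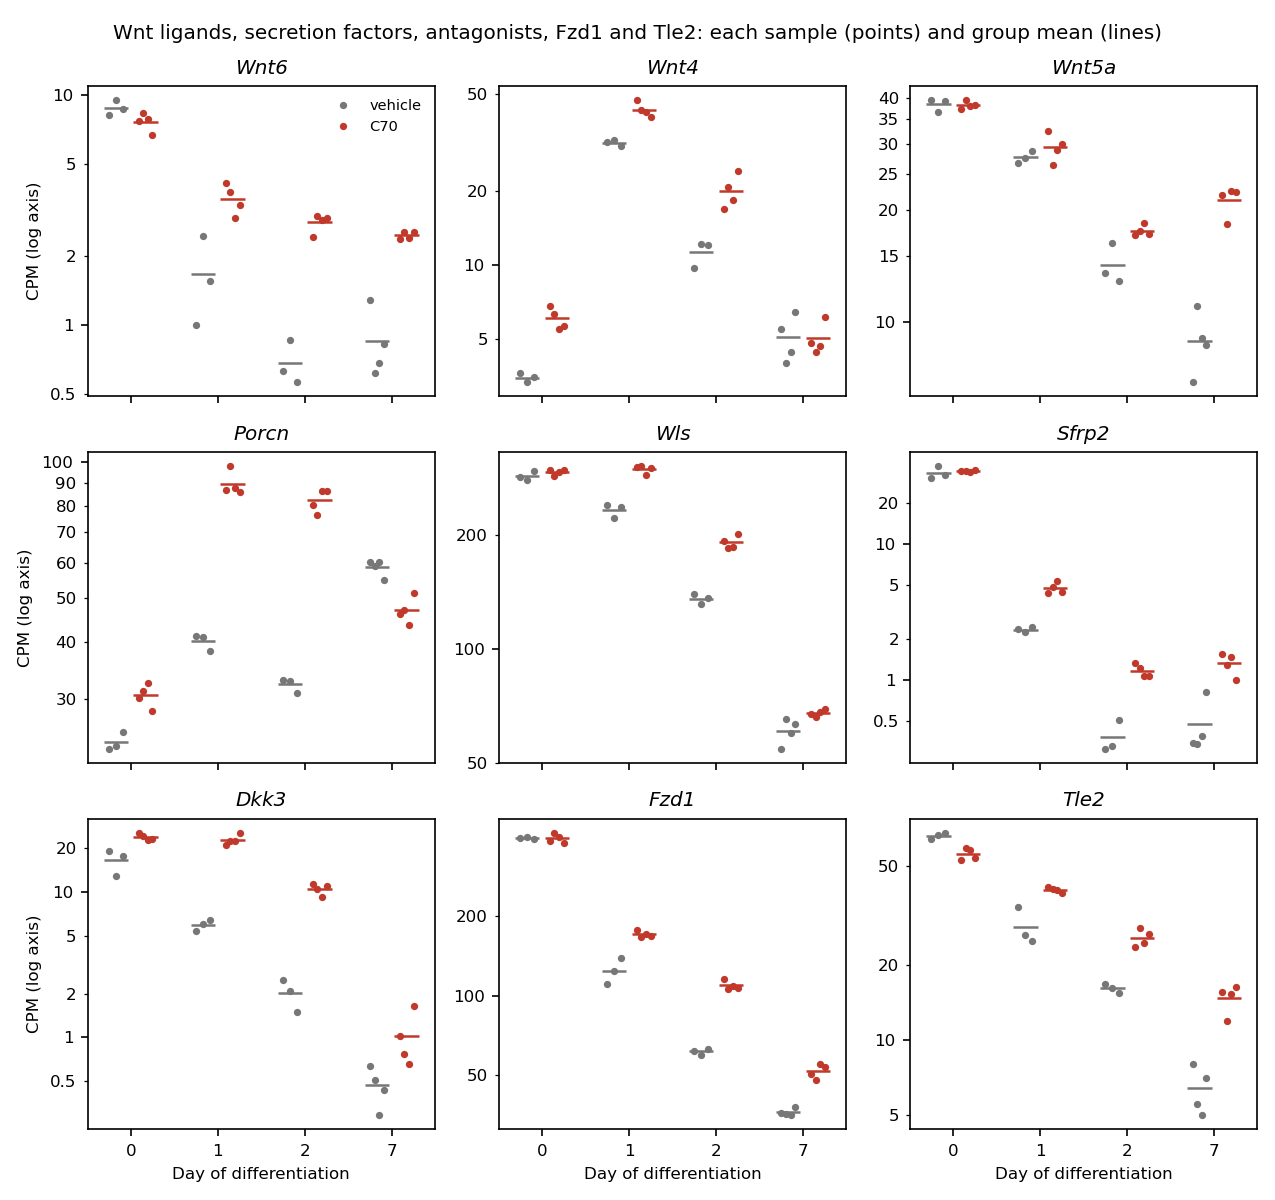
Level of 9 members in each sample (CPM, log axis) by day, with vehicle in grey, C70 in red and lines at the group means (n = 3 vehicle and 4 C70 at days 0, 1 and 2, n = 4 each at day 7). Wnt6, Sfrp2, Dkk3, Fzd1 and Tle2 are lower at day 7 than at day 0 in both treatments, with the C70 points above vehicle from day 1, Wnt4 peaks at day 1, and Porcn is above vehicle until day 2 and below it at day 7.

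Both genes for ligand export were higher with C70 at days 1 and 2, when 13.6% and 16.9% of all genes were. The day 1 call of Wls was lost with quantile normalization. Porcn (chrX:8193848-8206525, minus strand), the acyltransferase that attaches the lipid on Wnt proteins, was at 23.3, 23.5 and 25.4 CPM in the vehicle samples and 30.1, 31.2, 32.5 and 28.2 CPM in the C70 samples on day 0. It was at 41.4, 41 and 38.2 CPM in the vehicle samples and 86.9, 97.9, 87.9 and 85.8 CPM in the C70 samples on day 1. By day 2 it stood at 33.1, 32.9 and 30.9 CPM in the vehicle samples and 80.6, 76.4, 86.5 and 86.4 CPM in the C70 samples. Vehicle and C70 samples were apart on each of these days, with C70 higher. On day 7 the order was the opposite, at 60.1, 58.9, 60.2 and 54.9 CPM in the vehicle samples and 46.2, 47.1, 43.6 and 51.5 CPM in the C70 samples, and the groups did not overlap. The change with C70 was, on the log2 scale, 0.34 ± 0.0658 (SE, adjusted P = 0.0003) on day 0, 1.16 ± 0.0603 (SE, adjusted P = 1.19e-15) on day 1 and 1.35 ± 0.0618 (SE, adjusted P = 2.68e-17) on day 2. On day 7 it was -0.31 ± 0.0561 (SE, adjusted P = 4.29e-05), under the fold threshold. The day 0 call was lost with vehicle replicate 1 (0.32) or C70 replicate 3 (0.31) of that day left out, and on day 7 Porcn was called lower without vehicle replicate 4 (-0.34) or C70 replicate 4 (-0.36), or when day 7 was fitted alone (-0.32).

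Wls, the carrier that takes Wnt proteins to the cell surface, declined in vehicle from 287 ± 8.04 CPM (SD, n = 3) on day 0 to 60.8 ± 4.73 CPM (SD, n = 4) on day 7. It was at 239.6, 222 and 238 CPM in the vehicle samples and 302, 304, 288 and 301 CPM in the C70 samples on day 1. On day 2 the levels were 139, 131 and 137 CPM in the vehicle samples and 193, 185, 186 and 201 CPM in the C70 samples. The C70 samples of day 1 were near the level of day 0, where the vehicle samples were at 285, 279.9 and 296 CPM, and on both days they stood above all vehicle samples. With C70 the log2 fold change was 0.36 ± 0.0457 (SE, adjusted P = 2.03e-07) on day 1 and 0.50 ± 0.0467 (SE, adjusted P = 2.38e-10) on day 2, and it was 0.15 on day 7 (adjusted P = 0.00784 in edgeR), under the fold threshold. With quantile normalization the day 1 value was 0.32 and no longer called.

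Of the 12 receptors, 1 was higher with C70 on day 0, 3 on day 1, 6 on day 2 and 8 on day 7, and 1 was lower, on day 1. Of all genes, 5.89%, 13.6%, 16.9% and 14.3% were higher on these days. Fzd1 (chr5:4753839-4758035, minus strand) had the steepest decline of the Frizzled receptors in vehicle. It was at 397, 398 and 393 CPM in the vehicle samples and 387, 414, 399 and 378 CPM in the C70 samples on day 0. Levels on day 1 were 111, 124 and 139 CPM in the vehicle samples and 178, 167, 171 and 168 CPM in the C70 samples. On day 2 the levels were 62.1, 60.0 and 63.2 CPM in the vehicle samples and 116, 106, 109 and 107 CPM in the C70 samples. The groups overlapped on day 0 and not afterwards, with C70 higher. On day 7 Fzd1 was at 35.9, 35.8, 35.4 and 37.8 CPM in the vehicle samples and 50.8, 47.9, 55.2 and 53.6 CPM in the C70 samples. C70 against vehicle gave a log2 fold change of -0.0058 on day 0 (95% confidence interval -0.11 to 0.097), 0.46 ± 0.0545 (SE, adjusted P = 5.51e-08) on day 1, 0.83 ± 0.057 (SE, adjusted P = 2.79e-13) on day 2 and 0.52 ± 0.0562 (SE, adjusted P = 9.16e-09) on day 7. In vehicle the log2 fold change from day 0 was -1.67 on day 1, -2.68 on day 2 and -3.45 on day 7.

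Fzd7 and Fzd2 are further Frizzled receptors that use both canonical and other branches. Fzd7 (chr1:59482424-59486955, plus strand) was at 35.5, 36.6 and 36.8 CPM in the vehicle samples and 52.6, 48.4, 47.9 and 52.3 CPM in the C70 samples on day 1. By day 7 it was at 14.1, 15, 18.9 and 19 CPM in the vehicle samples and 22.9, 23.1, 21.2 and 23.9 CPM in the C70 samples. All C70 samples were above all vehicle samples at days 1, 2 and 7, while on day 0 every C70 sample was below. Its log2 fold change was -0.13 on day 0 (adjusted P = 0.244 in edgeR), 0.47 ± 0.0712 (SE, adjusted P = 3.26e-06) on day 1, 0.40 on day 2 and 0.44 on day 7. Fzd2 was at 29.7 ± 0.631 CPM (SD, n = 3) in vehicle and 42 ± 1.68 CPM (SD, n = 4) with C70 on day 2, a log2 fold change of 0.50 ± 0.0792 (SE, adjusted P = 3.61e-06). On days 0 and 1 its log2 fold changes were 0.036 (adjusted P = 0.788 in edgeR) and 0.15 (adjusted P = 0.112). On day 7 the Fzd2 log2 fold change was 0.64 ± 0.0777 (SE, adjusted P = 8.43e-08), and the vehicle samples ranged from 18.4 to 26.6 CPM, all below the C70 samples.

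Fzd4, a receptor that also binds the non-Wnt ligand Norrin, rose in vehicle by a log2 fold change of 1.37 ± 0.0778 (SE, adjusted P = 4.43e-16) by day 1 and was still 1.31 above day 0 on day 7. It was at 24.4, 26.9 and 25 CPM in the vehicle samples and 34.5, 38.2, 35.9 and 33.7 CPM in the C70 samples on day 0. On day 7 the levels were 51.9, 66.4, 67.8 and 66 CPM in the vehicle samples and 82, 76.5, 91.9 and 80.5 CPM in the C70 samples, without overlap on either day. On the log2 scale the C70 effect was 0.48 ± 0.0758 (SE, adjusted P = 1.97e-05) on day 0 and 0.39 ± 0.0633 (SE, adjusted P = 9.76e-06) on day 7, and 0.095 on day 1 (95% confidence interval -0.038 to 0.23). On day 2 it was 0.17 (adjusted P = 0.0401 in edgeR), under the fold threshold, with every C70 sample higher. Without day 7 vehicle replicate 1, the low sample, the day 7 value was 0.31 and not called. Outside the rule for named genes, and chosen after their values were seen, Fzd3 was higher on day 1 by 0.39 ± 0.129 (SE, adjusted P = 0.0148) on the log2 scale, a call lost at 0.35 without day 1 vehicle replicate 1. Fzd5, likewise outside the rule, was lower on day 1, at -0.48 ± 0.068 (SE, adjusted P = 1.15e-06), and on day 2 its -0.29 became a call without vehicle replicate 1 or C70 replicate 4. Fzd8 and Ryk, also chosen after their values were seen, were called on no day, with log2 fold changes from -0.18 to 0.12 and from -0.043 to 0.27. Every C70 sample was lower for Fzd8 on day 2 (15.2 to 17.83 against 18.09 to 19.95 CPM). For Ryk every C70 sample was lower on day 1 (105.2 to 108.6 against 109.6 to 111.8 CPM) and higher on days 0, 2 and 7.

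The coreceptor genes Lrp5 and Lrp6, whose products carry the canonical signal, were highest on day 1 of the 4 days in vehicle. Lrp5 was at 333 ± 10.8 CPM (SD, n = 3) on day 0 and 987 ± 14.1 CPM (SD, n = 3) on day 1 in vehicle. With C70 it was higher on day 2, at 531, 558 and 535 CPM in the vehicle samples and 688, 673, 693 and 692 CPM in the C70 samples. It was also higher on day 7, at 380.1, 389, 388 and 412 CPM in the vehicle samples and 521, 524, 533 and 574 CPM in the C70 samples. No vehicle sample reached the lowest C70 sample on those days. In edgeR the log2 fold change was 0.34 ± 0.0402 (SE, adjusted P = 2.08e-08) on day 2, which quantile normalization brought to 0.30 and under the threshold, and 0.46 ± 0.0373 (SE, adjusted P = 2.89e-11) on day 7. On days 0 and 1 it was 0.21 (adjusted P = 0.000272 in edgeR) and 0.052 (adjusted P = 0.319), under the fold threshold, with every C70 sample higher on both days. For Lrp6 it was 0.051 on day 0 (adjusted P = 0.777 in edgeR, groups overlapping) and 0.21 on day 1 (adjusted P = 0.0843, every C70 sample higher). Lrp6 was at 449, 454 and 419 CPM in the vehicle samples and 642, 562, 583 and 613 CPM in the C70 samples on day 2, with a log2 fold change of 0.45 ± 0.0956 (SE, adjusted P = 0.000243) and no overlap. On day 7 Lrp6 was at 186, 309, 299.6 and 272 CPM in the vehicle samples and 345, 292, 362 and 355 CPM in the C70 samples, and the groups overlapped. Its day 7 log2 fold change of 0.34 ± 0.0889 (SE, adjusted P = 0.00251) was lost without vehicle replicate 1 (0.21), C70 replicate 3 (0.31) or C70 replicate 4 (0.32). Fitted on day 7 alone it was 0.33 (adjusted P = 0.094 in edgeR), and with the replicate block in that fit 0.35 (adjusted P = 0.0923 in edgeR).

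Ror1 and Ror2, receptor tyrosine kinase-like proteins that bind Wnt5a, both declined in vehicle, Ror2 to 3 to 6 reads per sample on day 7. Ror2 was at 8.46, 8.31 and 7.01 CPM in the vehicle samples and 8.47, 9.22, 9.88 and 8.25 CPM in the C70 samples on day 0. Levels on day 7 were 0.175, 0.338, 0.245 and 0.274 CPM in the vehicle samples and 0.75, 0.532, 0.535 and 1.27 CPM in the C70 samples. The groups overlapped on day 0, and on day 7 all C70 samples were higher, C70 replicate 4 the most. The log2 fold change of Ror2 with C70 was 1.58 ± 0.39 (SE, adjusted P = 0.00163) on day 7 and not called on the other days (0.17, 0.29 and 0.30), except that on day 1 it was 0.40 and called without C70 replicate 1. Ror1 was at 3.01 ± 0.498 CPM in vehicle and 5.31 ± 0.893 CPM with C70 on day 7 (SD, n = 4 each). Its log2 fold change was 0.69 ± 0.138 (SE, adjusted P = 0.000101) on day 2 and 0.81 ± 0.154 (SE, adjusted P = 8.54e-05) on day 7, and it was -0.079 on day 0 and -0.084 on day 1.

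Dkk3 and Sfrp2, the 2 members of the secreted antagonist families in the table, had some of the largest differences. Sfrp2 binds Wnt proteins outside the cell, and Dkk3 is a divergent member of the Dickkopf family, placed in this role by its gene symbol alone. Dkk3 (chr7:112116017-112159057, minus strand) was at 19, 12.7 and 17.6 CPM in the vehicle samples and 25.3, 24, 22.5 and 23.1 CPM in the C70 samples on day 0. It was at 5.34, 6.01 and 6.41 CPM in the vehicle samples and 21, 22.4, 22.1 and 25.1 CPM in the C70 samples on day 1. By day 2 it stood at 2.47, 2.09 and 1.48 CPM in the vehicle samples and 11.2, 10.4, 9.22 and 11 CPM in the C70 samples. On all 3 days the C70 samples were above the vehicle samples, and the C70 samples of day 1 lay within the 12.7 to 25.3 CPM that the day 0 samples spanned. On day 7 Dkk3 was at 0.64, 0.507, 0.294 and 0.439 CPM in the vehicle samples and 1.02, 0.769, 0.654 and 1.64 CPM in the C70 samples, from 6 to 11 reads per vehicle sample, again without overlap. With C70 the log2 fold change was 0.52 ± 0.11 (SE, adjusted P = 0.00088) on day 0, 1.94 ± 0.129 (SE, adjusted P = 3.14e-13) on day 1, 2.36 ± 0.168 (SE, adjusted P = 6.28e-13) on day 2 and 1.15 ± 0.35 (SE, adjusted P = 0.0089) on day 7. The day 0 call was lost with limma-trend (0.55, adjusted P = 0.0908) and the day 7 call without C70 replicate 4 (0.82), the highest sample.

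Sfrp2 (chr3:83766321-83774316, plus strand) fell steeply in vehicle, with log2 fold changes against day 0 of -3.82, -6.44 and -6.12 on days 1, 2 and 7. Those of Dkk3 were -1.48, -3.02 and -5.14. Sfrp2 was at 30.8, 37.4 and 32.2 CPM in the vehicle samples and 34.3, 34.4, 34.2 and 35 CPM in the C70 samples on day 0, with overlap. Its levels were 2.37, 2.25 and 2.45 CPM in the vehicle samples and 4.37, 4.82, 5.39 and 4.48 CPM in the C70 samples on day 1. By day 2 it was at 0.315, 0.327 and 0.512 CPM in the vehicle samples and 1.33, 1.24, 1.08 and 1.08 CPM in the C70 samples, and all C70 samples were higher. On day 7 they were 0.349, 0.338, 0.392 and 0.822 CPM in the vehicle samples and 1.55, 1.3, 1.49 and 1.0 CPM in the C70 samples, where vehicle replicate 4 stood above the other vehicle samples and below every C70 sample. C70 against vehicle gave a log2 fold change of 0.046 on day 0 (95% confidence interval -0.10 to 0.19), 1.01 ± 0.135 (SE, adjusted P = 4.77e-07) on day 1, 1.63 ± 0.27 (SE, adjusted P = 7.43e-06) on day 2 and 1.47 ± 0.241 (SE, adjusted P = 1.12e-05) on day 7. The day 2 and day 7 values rest on 6 to 29 reads per sample. Even the C70 samples of day 2 were far under the day 0 level, at 1.18 ± 0.127 CPM (SD, n = 4) against 34.5 ± 0.386 CPM (SD, n = 4). Znrf3, a ligase that clears Frizzled receptors from the membrane, was called on day 0 alone, with a log2 fold change of 0.34 ± 0.10 (SE, adjusted P = 0.0167). That gene was chosen after its values were seen, and the call was lost when any of vehicle replicates 1 and 3 and C70 replicates 1 and 3 of that day was left out, at 0.30 to 0.33.

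None of the 5 genes of β-catenin and the destruction complex (Ctnnb1, Apc, Axin1, Gsk3a and Gsk3b) was called with C70 on any day, by edgeR or by DESeq2, while 1 had an unadjusted P under 0.05 on day 0, 2 on day 1, 2 on day 2 and 1 on day 7 (30.8%, 48.2%, 56.0% and 48.2% of all genes). The shares of all genes called were 8.97%, 21.4%, 30.5% and 19.1%, and 5 genes are too few to tell a count of 0 from them. Ctnnb1 was at 558, 584 and 562 CPM in the vehicle samples and 666, 672, 675 and 675 CPM in the C70 samples on day 0. Every C70 sample was higher there, and on day 7 the groups overlapped, at 266, 309, 297 and 288 CPM in the vehicle samples and 295, 280.1, 286 and 299.7 CPM in the C70 samples. On the log2 scale the C70 effect for Ctnnb1 was 0.24 ± 0.0405 (SE, adjusted P = 5.02e-05) on day 0, 0.16 ± 0.0406 (SE, adjusted P = 0.00198) on day 1, 0.20 ± 0.0407 (SE, adjusted P = 0.000134) on day 2 and 0.0004 on day 7, all under the fold threshold. Gsk3b, the kinase that marks β-catenin, had log2 fold changes from -0.072 to 0.092 and a 95% confidence interval of -0.17 to 0.17 on day 0. Apc, the scaffold of the complex, ranged from -0.046 to 0.11 and Axin1 from -0.084 to 0.058. Gsk3a, chosen after its values were seen, had the lowest value of the 5 genes, -0.30 on day 7 (adjusted P = 2.74e-05 in edgeR), which was -0.34 and called lower without day 7 vehicle replicate 2. Of the Dishevelled genes, whose products pass the signal from Frizzled inward, only Dvl2 was called, on day 2, with 0.53 ± 0.0604 (SE, adjusted P = 1.45e-08), a gene chosen after its values were seen. Dvl1 and Dvl3, likewise chosen, ranged from -0.21 to 0.099 over the 4 days. Every C70 sample of Dvl1 was lower on day 1 (63.0 to 66.33 against 72.18 to 76.11 CPM) and day 2 (70.39 to 74.69 against 81.85 to 84.65 CPM). Every C70 sample of Dvl3 was higher on day 1 (88.2 to 93.66 against 82.89 to 87.11 CPM).

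In vehicle, Ctnnb1 declined from 568 ± 13.7 CPM (SD, n = 3) on day 0 to 290.3 ± 18.1 CPM (SD, n = 4) on day 7, a log2 fold change of -0.97 ± 0.0403 (SE, adjusted P = 5.03e-20). Gsk3a and Gsk3b, which encode the 2 forms of the kinase, had log2 fold changes of 1.02 ± 0.0578 (SE, adjusted P = 1.43e-16) and -0.32 ± 0.0879 (SE, adjusted P = 0.00129) on day 7. For Gsk3b, vehicle replicate 1 was at 115 CPM and the other samples of day 7 were at 165 to 194 CPM.

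Lef1, a TCF/LEF factor that activates target genes with β-catenin, was higher with C70 on some days and lower on another. It was at 18.7, 21.1 and 18.7 CPM in the vehicle samples and 27.2, 27.6, 25.8 and 28.2 CPM in the C70 samples on day 0. On day 2 the levels were 56.7, 60.4 and 58.5 CPM in the vehicle samples and 46.1, 44.4, 46.3 and 44 CPM in the C70 samples. The C70 samples were all higher on day 0 and all lower on day 2. On day 7 they were all higher again, at 48, 44.2, 49.4 and 46.5 CPM in the vehicle samples and 62.9, 61.3, 59.1 and 64.9 CPM in the C70 samples. In edgeR the log2 fold change was 0.49 ± 0.0597 (SE, adjusted P = 3.95e-07) on day 0, 0.035 on day 1 (95% confidence interval -0.077 to 0.15), -0.37 ± 0.0526 (SE, adjusted P = 5.7e-07) on day 2 and 0.40 ± 0.0492 (SE, adjusted P = 1.06e-07) on day 7. In vehicle Lef1 rose from 19.5 ± 1.39 CPM on day 0 to 58.5 ± 1.85 CPM on day 2 (SD, n = 3 each). Tcf7l1 and Tcf7l2 were called on no day with C70, with log2 fold changes from -0.22 to 0.25 and from -0.083 to 0.13. For Tcf7l1, chosen after its values were seen, every C70 sample was lower on day 1 (317.2 to 336.2 against 365.1 to 389.7 CPM) and higher on days 0 and 7.

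The Tle genes encode Groucho corepressors, which keep TCF/LEF targets silent. Tle2 (chr10:81574561-81590845, plus strand) was at 64.1, 66.6 and 68 CPM in the vehicle samples and 53.1, 59, 58.2 and 53.9 CPM in the C70 samples on day 0, with every C70 sample lower. It was at 34.3, 26.3 and 25.1 CPM in the vehicle samples and 41.1, 40.5, 40.0 and 38.9 CPM in the C70 samples on day 1. Levels on day 7 were 8.03, 5.52, 5.0 and 7.02 CPM in the vehicle samples and 15.5, 11.9, 15.3 and 16.3 CPM in the C70 samples, with every C70 sample higher. Its log2 fold change was -0.24 on day 0 (adjusted P = 0.046 in edgeR, under the fold threshold), 0.49 ± 0.0942 (SE, adjusted P = 0.000108) on day 1, 0.68 ± 0.104 (SE, adjusted P = 2.43e-06) on day 2 and 1.22 ± 0.121 (SE, adjusted P = 1.55e-09) on day 7. In vehicle Tle2 fell, with a log2 fold change of -3.38 by day 7. Tle4 rose to 62.4 ± 2.51 CPM on day 1 in vehicle from 16.3 ± 0.309 CPM on day 0 (SD, n = 3 each), and was higher with C70 by 0.85 ± 0.0732 (SE, adjusted P = 3.84e-11) on the log2 scale on day 2 and 0.74 ± 0.0902 (SE, adjusted P = 7.75e-08) on day 7. Tle1 was called on no day with C70, at 0.031, -0.20, -0.19 and 0.25, but in vehicle it rose by 2.09 ± 0.0674 (SE, adjusted P = 3.58e-22) on day 1. Every C70 sample of Tle1 was lower on day 1 (48.87 to 51.05 against 55.32 to 61.05 CPM) and day 2 (41.03 to 44.24 against 47.44 to 51.62 CPM). On day 7 every C70 sample of Tle1 was higher. Tle3, chosen after its values were seen, was at 182, 191 and 194 CPM in the vehicle samples and 141, 146, 147 and 145 CPM in the C70 samples on day 2, all C70 samples being lower, with a log2 fold change of -0.39 ± 0.049 (SE, adjusted P = 8.89e-08).

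Exons of 11 members overlap a gene on the other strand (Ctnnb1, Dvl1, Dvl2, Fzd5, Gsk3a, Lef1, Sfrp2, Tcf7l1, Tle1, Tle2 and Wnt5a), and Apc and Ryk have a named pseudogene. The libraries were strand-specific, but whether strand was used in counting is not given in the sources used here, so for these genes the share of reads from the other gene was not tested.

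Whether the C70 effect itself differed between days was tested with interaction contrasts in edgeR. From day 0 to day 2 the signed log2 fold change with C70 went up in 12 members and down in 2, beside 14.9% and 11.7% of all genes (26.6%). From day 2 to day 7 it went up in 8 and down in 5, beside 11.9% and 9.04% (20.9%). Of those that went up, Fzd5, Lef1, Tcf7l1, Tle1 and Tle3 were below 0 on day 2 and above 0 on day 7. Of those that went down, Porcn went from above 0 to below 0 and Wnt4 to near 0. Between day 0 and day 2 the effect on the log2 scale rose by 2.20 ± 0.282 (SE, adjusted P = 2.67e-07) for Wnt6, 1.84 ± 0.206 (SE, adjusted P = 2.4e-08) for Dkk3, 1.58 ± 0.281 (SE, adjusted P = 4.01e-05) for Sfrp2 and 1.01 ± 0.0897 (SE, adjusted P = 2.78e-10) for Porcn. It went down by 0.86 ± 0.0796 (SE, adjusted P = 6.66e-10) for Lef1, from 0.49 to -0.37. The other was Tle3, which went from 0.077 to -0.39. Between day 2 and day 7 the effect on Porcn dropped by 1.66 ± 0.0832 (SE, adjusted P = 2e-15) and that on Wnt4 by 0.84 ± 0.188 (SE, adjusted P = 0.000876), whereas that on Wnt5a rose by 0.96 ± 0.135 (SE, adjusted P = 1.93e-06) and that on Lef1 by 0.77 ± 0.072 (SE, adjusted P = 1.25e-09). The drop for Dkk3, -1.21 ± 0.426 (SE, adjusted P = 0.0308), lost its call when vehicle replicate 3 of day 2, or vehicle replicates 1, 2, 4 or C70 replicates 2, 3 of day 7, were left out singly (-1.03 to -1.23). The rise for Ror2, 1.28 ± 0.443 (SE, adjusted P = 0.0279), lost it without vehicle replicate 2 of day 2, or 1 of vehicle replicates 1 and 3 and C70 replicate 4 of day 7 (0.92 to 1.251), and with quantile normalization (0.60). For Sfrp2 the day 2 and day 7 effects were not shown to differ, with a difference of -0.16 and a 95% confidence interval of -0.90 to 0.59, although with quantile normalization in limma it was -0.79 and called.

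**Figure D5:**
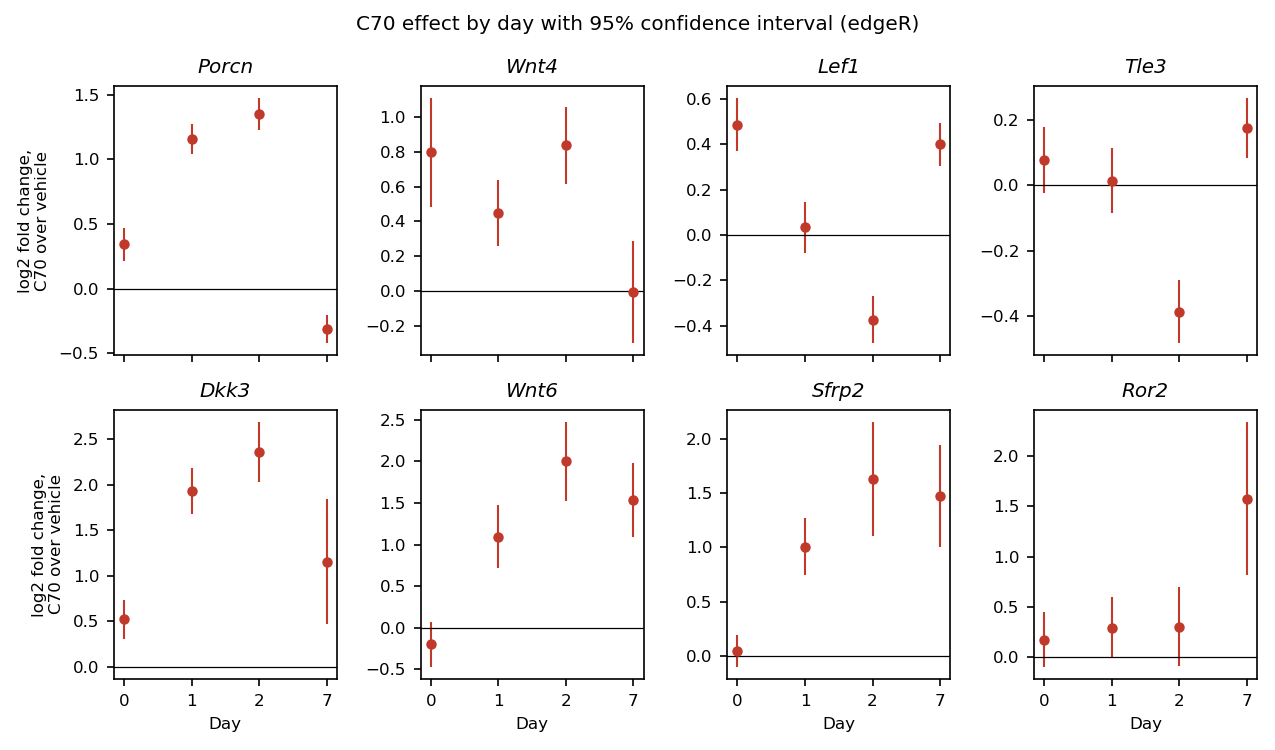
log2 fold change of C70 over vehicle (vertical axis, 1 scale per panel) with its 95% confidence interval on days 0, 1, 2 and 7 for 8 members. Porcn goes from 1.35 at day 2 to -0.31 at day 7, Lef1 and Tle3 lie below 0 at day 2 only, and the intervals of Dkk3, Sfrp2 and Ror2 are widest at late days, when their counts are low.

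Of 53 other pathway genes in the table (casein kinases, β-catenin partners, Dact and Gpc genes and others), 2 were higher and 2 lower with C70 on day 0, 6 and 1 on day 1, 9 and 2 on day 2, and 11 and 0 on day 7. The shares were 7.55%, 13.2% and 20.8% on days 0, 1 and 2, each under that of all genes, and 20.8% on day 7 against 19.1%. Tle6, a divergent relative of the Tle corepressors, was called on all 4 days and went from 14.9 ± 1.57 CPM (SD, n = 3) in vehicle to 42.3 ± 1.55 CPM (SD, n = 4) with C70 on day 0, a log2 fold change of 1.51. Apcdd1, a membrane antagonist of Wnt signalling, was at 0.027 on day 0, 0.97 on day 1, 1.42 on day 2 and 1.26 on day 7 on the log2 fold scale. Dact1, a Dishevelled-binding antagonist, was at -0.015, 0.57, 0.83 and 1.26 on the 4 days, and Tpbg, a membrane inhibitor of Lrp6 signalling, at -0.015, 0.53, 0.88 and 0.46.

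Of 29 planar polarity and calcium branch genes, 0 were higher and 1 lower on day 0, 5 and 0 on day 1, 9 and 1 on day 2, and 8 and 0 on day 7 (3.45%, 17.2%, 34.5% and 27.6%). All genes gave 8.97%, 21.4%, 30.5% and 19.1%, so this list was below them on the first 2 of these days. Prickle2, a polarity protein, had log2 fold changes of -0.16, 0.83, 1.2 and 1.31 on days 0, 1, 2 and 7. Ptk7, a Wnt coreceptor of that branch, had 0.031, 0.48, 0.73 and 0.70, and Daam2, a formin that binds Dishevelled, -0.28 (adjusted P = 0.00224 in edgeR, under the fold threshold), 0.39, 0.54 and 0.45. The day 1 count of 5 was 3 without day 1 C70 replicate 2. Of 25 textbook target genes, which include the members Lef1 and Znrf3, 6 were higher and 1 lower on day 0, 8 and 4 on day 1, 14 and 4 on day 2, and 13 and 2 on day 7. These are 28%, 48%, 72% and 60.0%, against 8.97%, 21.4%, 30.5% and 19.1% of all genes. The day 0 count of 7 was 4 without day 0 vehicle replicate 3. Ccnd1, which encodes cyclin D1, was at 14.8 ± 0.183 CPM (SD, n = 3) in vehicle and 44.5 ± 2.29 CPM (SD, n = 4) with C70 on day 2, a log2 fold change of 1.59. Ccn5, which encodes a matricellular protein, had log2 fold changes of 0.50, 2.03, 2.13 and 0.96 on the 4 days, and Snai2, which encodes a zinc finger repressor, -0.045, 0.72, 1.24 and 0.88. Other targets went lower on some days. Birc5 had -0.066, -0.69, -0.95 and 0.73, and Fst had -0.17, -0.34, 0.515 and 0.73, both chosen after their values were seen. Many of these targets also respond to other signals, and they were chosen with earlier results of these samples known.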

How the data were processed

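RNA was extracted with Qiagen miRNeasy and made into strand-specific libraries with the NuGEN Universal plus mRNA-Seq kit. The authors aligned reads to GRCm38 (Ensembl 97) with STAR 2.7.2a and deposited 1 table of whole-number counts per gene, unscaled, for 11959 genes in 29 samples; the counting program and the filter on low genes are not given in the sources used here. No column of another sample was present. Groups came from the labels.

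From the counts, edgeR 4.0.16 (R 4.3.3) fitted its quasi-likelihood model to all samples with 8 group means and TMM factors (0.898 to 1.08), and P-values were adjusted over all genes. Called means adjusted P below 0.05 and fold change above 1.25. The script was tested on simulated data. Between replicates, 39 pairs differed beyond sampling noise (chi-square per degree of freedom at least 2.65). Exon lengths and overlaps came from GENCODE gene models on GRCm38. Alternatives were DESeq2 1.42.0, limma 3.58.1 (limma-trend and quantile normalization), a filter on low genes, fits per day, a replicate block, adjusted P alone and leaving out each sample.

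Members and lists were chosen with earlier results of these data known. Single values, not on every day per sample, are given for members called with C70 on 2 or more days, for the 3 members with the largest called change on each day, for the 3 largest rises and falls in vehicle at day 7, and for Ctnnb1, Lrp6, Gsk3b and Axin2 (not in the table). Other members were given by range, or with values where said to be chosen after these were seen. Genes of the lists were named where called on 3 or 4 days, at most 4 per list, with Birc5 and Fst added after their values were seen.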

Additional observations from a re-analysis of the deposited data

Results flagged for a closer look

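Among the 20 members named by rule, 100 sets of 4 samples were searched for a sample far from the other 3 (Dixon's test at 95%), and 6 were found where chance gives 5.0. These were Fzd4 at 64.52 CPM in day 1 C70 replicate 2 and at 51.91 CPM in day 7 vehicle replicate 1, Gsk3b at 194.6 CPM in day 2 C70 replicate 1, Sfrp2 at 35.05 CPM in day 0 C70 replicate 4 and at 0.8222 CPM in day 7 vehicle replicate 4, and Tle1 at 41.03 CPM in day 2 C70 replicate 4.

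The C70 effect differed between days 0 and 2 (interaction contrast in edgeR, on the log2 scale, adjusted over all genes) for 13 of these members. It differed for 14 of all 35 members and for 26.6% of all genes. These members were named mostly for their calls with C70, so their count cannot be set against those shares. The signed effect was higher at day 2 by 2.20 for Wnt6, 1.84 for Dkk3, 1.58 for Sfrp2, 1.01 for Porcn, 0.92 for Tle2, 0.83 for Fzd1, 0.77 for Ror1, 0.63 for Tle4, 0.52 for Fzd7, 0.47 for Fzd2, 0.46 for Wls and 0.39 for Lrp6, and the difference for Lef1 was -0.86. The call for Lrp6 was lost without day 0 vehicle replicate 3 (0.37) or day 2 vehicle replicate 3 (0.36).

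Between days 2 and 7 the effect differed for 8 of them, by 1.28 for Ror2, 0.77 for Lef1, 0.55 for Tle2 and 0.44 for Tle1, and by -1.66 for Porcn, -1.21 for Dkk3, -0.84 for Wnt4 and -0.34 for Wls. It differed for 13 of all 35 members and for 20.9% of all genes, and the same limit of selection applies. The call for Wls was lost without day 2 vehicle replicate 2 (-0.32), day 2 C70 replicate 4 (-0.32) or day 7 vehicle replicate 2 (-0.31). That for Tle2 was lost with quantile normalization (0.36).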

How the results depend on the processing

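Of 1407 results recomputed under alternatives that keep every sample, 1357 kept their direction and side of the threshold, and of 5336 recomputed without 1 sample each, 5255 did. These results are the changes of the 20 members named by rule and the members' median with C70 on each day, judged by its spread between samples. Mostly the sample left out was in none of the groups compared and could change little. The second share therefore says little about single samples. With adjusted P alone and no fold threshold, 12, 17, 25 and 24 members were called with C70 on days 0, 1, 2 and 7, beside 19.8%, 40.7%, 50.7% and 41.1% of all genes. That threshold gave 10, 17, 26 and 29 of the 53 other pathway genes on days 0, 1, 2 and 7, 5, 9, 17 and 15 of the 29 polarity and calcium genes, and 13 of the 25 target genes at day 0. The filter that left 8969 genes gave 7 other pathway genes at day 2, since it tests fewer genes, and quantile normalization gave 7 other pathway genes at day 7 and 3 polarity and calcium genes at day 1 (the cause was not tested).

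Values near 0 changed sign. Under quantile normalization these were 0.0159 for Ctnnb1 and -0.0784 for Ror2 (day 2 minus day 0), -0.0074 for Fzd7 (day 7 minus day 2), and -0.0030 for Lrp6 and -0.0162 for Wls at day 0. Wnt4 at day 7 was 0.0183 with the filter, and Ctnnb1 at day 7 was -0.0103 in a fit of that day alone. Without 1 sample each, the polarity and calcium count at day 1 ranged from 3 to 6 and the target count at day 0 from 4 to 8. Log2 fold changes at day 0 then ranged from -0.0298 to 0.0139 for Fzd1, -0.0187 to 0.0283 for Gsk3b, -0.1540 to 0.0464 for Ror1, -0.0113 to 0.1303 for Sfrp2 and -0.0438 to 0.0770 for Tle1. At day 1 Lef1 ranged from -0.0038 to 0.0917, and at day 7 Ctnnb1 from -0.0330 to 0.0322, Gsk3b from -0.0400 to 0.1768 and Wnt4 from -0.1235 to 0.1316. Differences between days ranged from -0.0465 to 0.2697 for Ror2 and -0.0657 to 0.1165 for Wnt4 (day 2 minus day 0), and from -0.0584 to 0.1093 for Fzd7 and -0.3848 to 0.2349 for Sfrp2 (day 7 minus day 2).

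Replicate numbers did not pair the samples: over 13 pairs the correlation of same-numbered samples ran from -0.184 to 0.202, and 2 were over 0.1, while 4 C70 samples correlated best with their own number. With a replicate block in the fit of all samples, 183 of 184 results were unchanged, and in a fit per day with the replicate block Ctnnb1 at day 7 was -0.0089 and Fzd1 at day 0 was 0.0070. That fit also lost the Lrp6 call at day 7 (0.35, adjusted P = 0.0923 in edgeR), as the fit per day without the block did (0.33).

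Depth limits Ror2, Dkk3, Sfrp2 and Wnt6 at late days, where vehicle samples held 3 to 22 reads on day 7, and the table covers 35 of 70 members. On day 2 vehicle samples held 11 to 21 reads for Wnt6 and 7 to 10 for Sfrp2.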
